A study of Mus musculus with 12 samples.

Results

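A set of 10 genes, most of them known for high expression in the striatum, a forebrain nucleus beneath the cortex, was followed through cortex and hippocampus of wild-type and telomerase-deficient mice. They are Ppp1r1b, Rgs9, Pde10a, Pde1b, Six3, Isl1, Syndig1l, Lrrc10b, Sh3rf2 and Ido1, 10 of the 55487 genes in the deposited tables. They were selected on their cortex values, which had measured higher in knockout than in wild type in these same libraries, so the cortex values are given as a description with no test. The hippocampus values did not enter the choice. All 10 had a mean of at least 10 normalized counts in both tissues, the minimum for the tests, and Isl1 reached it in hippocampus through the knockout group only.

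RNA sequencing of total RNA from C57BL/6 mice gave 12 libraries in 4 groups of 3. Cortex and hippocampus were each taken from mice of genotype mTert WT, called wild type here, and mTert KO (G1), called knockout, and no treatment is named for any group. Tert encodes the catalytic subunit of telomerase. The sources used here do not give the age and sex of the mice, how the mutant allele was made, or whether each library is its own animal, so p-values measure the spread between these libraries, which may be technical.

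The projection neurons of the striatum receive dopamine and adenosine signals through receptors that raise or lower cyclic AMP, and most of the genes described here act on that pathway or specify the neurons that use it. Ppp1r1b encodes DARPP-32, which becomes an inhibitor of protein phosphatase 1 when protein kinase A phosphorylates it. Rgs9 encodes a GTPase-activating protein that shortens signals of dopamine and opioid receptors, and Pde10a and Pde1b encode phosphodiesterases that break down cyclic nucleotides. Six3 and Isl1 encode homeodomain transcription factors that act in the formation of striatal projection neurons, and Isl1 is also a factor of forebrain cholinergic neurons. Syndig1l is a membrane protein first described as enriched in the striatum, Sh3rf2 is a protein with SH3 and RING finger domains, and Ido1 starts the kynurenine pathway of tryptophan breakdown. Lrrc10b is a leucine-rich repeat protein.

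The members were chosen for higher values in knockout cortex, so their shared direction there comes from the choice. Their promoters were searched for short motifs in the 250 bases upstream of the RefSeq starts (GRCm38.p6). Of the 10 genes, 6 had an entry there, with 9 start sites. The stretches outside annotated exons of the 4 genes with a single start site are shown because these carry no choice between starts, 5′ to 3′ on the strand of the gene, with motif matches in capitals.
Rgs9, chr11:109298182-109298431, minus strand: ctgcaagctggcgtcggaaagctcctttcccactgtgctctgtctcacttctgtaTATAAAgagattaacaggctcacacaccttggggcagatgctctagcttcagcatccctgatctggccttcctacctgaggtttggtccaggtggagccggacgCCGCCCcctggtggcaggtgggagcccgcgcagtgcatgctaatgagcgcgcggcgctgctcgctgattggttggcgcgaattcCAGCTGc
Six3, chr17:85620584-85620789, plus strand: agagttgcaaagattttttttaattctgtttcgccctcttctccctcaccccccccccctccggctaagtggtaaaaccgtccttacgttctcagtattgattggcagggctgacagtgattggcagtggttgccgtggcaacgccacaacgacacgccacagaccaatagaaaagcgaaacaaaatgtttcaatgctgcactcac
Isl1, chr13:116309690-116309938, minus strand: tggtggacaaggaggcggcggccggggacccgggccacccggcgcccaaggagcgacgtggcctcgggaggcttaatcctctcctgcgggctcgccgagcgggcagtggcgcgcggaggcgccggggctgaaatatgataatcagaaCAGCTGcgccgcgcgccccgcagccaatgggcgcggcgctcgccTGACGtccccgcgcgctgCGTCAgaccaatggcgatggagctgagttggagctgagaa
Lrrc10b, chr19:10457474-10457697, minus strand: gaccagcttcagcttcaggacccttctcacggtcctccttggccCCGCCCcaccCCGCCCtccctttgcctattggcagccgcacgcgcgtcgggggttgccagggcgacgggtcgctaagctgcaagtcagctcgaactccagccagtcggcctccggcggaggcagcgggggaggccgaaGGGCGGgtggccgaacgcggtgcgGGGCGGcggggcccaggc

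No motif was found at all of these starts. Searched on both strands, TGACG, the short core of the cyclic AMP response element, occurred upstream of Isl1 (2 matches) and in 1 of the 9 windows, against 17.8% of the 32851 windows of 250 bases in the RefSeq promoter table. The full element TGACGTCA, of which TGACG is a part, and the homeodomain core TAATTA occurred in 0 of the 9 windows, against 1.55% and 4.84% of all windows. The GC box GGGCGG occurred in 4 of the 9 windows (Rgs9, Pde10a, Pde1b and Lrrc10b, the last with 4 matches), against 32.7% of all windows. The TATA box TATAAA occurred in 1 window, that of Rgs9, against 12.4%, and the E-box CAGCTG in 3 windows (Rgs9, Pde10a and Isl1), against 13.0% of all windows. A match is a run of letters and no evidence of binding, and a window without one says only that these letters are not in it.

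The values are normalized read counts per gene, scaled by the authors within each tissue. With the smallest step of the values read as 1 read, cortex libraries held 68424934 to 77972013 reads and hippocampus libraries 72401909 to 86639113. Tert, the targeted gene, read between 105 and 241 normalized counts in the 6 wild-type libraries and between 0 and 6.31 in the 6 knockout libraries. Markers of the hippocampal fields (8 genes) summed to between 51767 and 66735 normalized counts in hippocampus libraries and between 4832 and 5465 in cortex libraries, in tables scaled separately. Cortex wild-type library 2 stood apart: the SD of log2 differences between genes was 0.57 and 0.54 against its group mates and between 0.35 and 0.38 for the other cortex pairs of 1 genotype. In hippocampus, wild-type libraries 1 and 3 held 322269 and 165256 normalized counts of Ttr, the leading transcript of the choroid plexus, against 7986 in wild-type library 2 and between 5087 and 13343 in the knockout libraries.

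All 10 genes were higher in each of the 3 knockout cortex libraries than in any wild-type cortex library, a separation that 16.0% of the 21945 tested genes showed and that the choice of the genes fixed here. Their log2 fold changes, knockout over wild type on the log2(normalized count + 1) scale, ran from 0.86 for Pde1b to 3.07 for Sh3rf2 with a median of 1.87, beside a median of -0.01 over all tested genes. Without wild-type library 2 they ran from 0.86 to 3.23 with a median of 1.72, and Six3 and Isl1 stood at 2.35 and 1.32. In bulk tissue, more cells of a type in the sample and more RNA per cell cannot be told apart.

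Among the signalling genes, Ppp1r1b (ENSMUSG00000061718, chromosome 11, 98348404 to 98357796, plus strand, GRCm38) read 5103, 6494 and 5401 normalized counts in wild-type cortex libraries 1 to 3 and 12643, 18783 and 15702 in knockout libraries 1 to 3. The lowest knockout library lay 1.95-fold above the highest wild-type library. The group means were 5666 ± 732 (SD, n = 3) and 15709 ± 3070, a log2 fold change of 1.46. A transcript that overlaps it on the other strand, 1700003D09Rik, went from between 28.1 and 61.4 to between 155 and 203 normalized counts. The sources used here do not say whether the counting used strand, so reads of an overlapping pair cannot be assigned with certainty.

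Rgs9 (ENSMUSG00000020599, chromosome 11, 109225355 to 109298129, minus strand) read 1192, 926 and 1144 normalized counts in wild-type cortex and 2541, 4105 and 3154 in knockout cortex. Its means were 1087 ± 142 and 3267 ± 788 (SD, n = 3), a log2 fold change of 1.57. Pde10a (ENSMUSG00000023868, chromosome 17, 8525372 to 8986648, plus strand) read 6422, 4707 and 6416 normalized counts in wild type and 9366, 15116 and 12447 in knockout. Both genes read lowest in wild-type library 2 and highest in knockout library 2. The means of Pde10a were 5848 ± 988 and 12310 ± 2878, a log2 fold change of 1.06, and its lowest knockout library lay 1.46-fold above its highest wild-type library, the narrowest gap of the 10 genes. The 3 annotated genes that overlap Pde10a reached at most 47.1 normalized counts in any cortex library.

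Pde1b (ENSMUSG00000022489, chromosome 15, 103503034 to 103530052, plus strand) was the steadiest of the genes in wild-type cortex, at 9124, 9305 and 9457 normalized counts. In knockout cortex it read 14721, 19070 and 16963. The means of 9295 ± 166 and 16918 ± 2175 (SD, n = 3) gave the smallest ratio of means of the 10 genes, 1.82, on the highest wild-type count.

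Both transcription factors were scarce in wild-type cortex. Six3 (ENSMUSG00000038805, chromosome 17, 85613608 to 85629302, plus strand) read 72.3, 12.02 and 38.3 normalized counts in wild type and 213, 346 and 273 in knockout. The wild-type libraries differed from one another by more than those of any other member, with a coefficient of variation of 74.0%, while the lowest knockout library lay 2.94-fold above the highest of them. The log2 fold change was 3.03. The antisense transcript Six3os1, which overlaps Six3, read 57.5, 24.0 and 26.8 normalized counts in wild type and 42.3, 144 and 83.5 in knockout, so that 1 knockout library fell within the wild-type range. The other 6 genes that overlap Six3 reached at most 6.58 normalized counts in cortex.

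Isl1 (ENSMUSG00000042258, chromosome 13, 116298281 to 116309689, minus strand) had the lowest level per length of the 10 genes, with 20.8, 7.01 and 16.3 normalized counts in wild-type cortex and 34.8, 50.7 and 59.9 in knockout cortex. Its means were 14.7 ± 7.03 and 48.5 ± 12.7 (SD, n = 3), a log2 fold change of 1.74. Since Isl1 is also a factor of cholinergic neurons, the markers of those neurons are set beside it. Chat, which makes acetylcholine, rose from 32.3 ± 11.0 to 96.5 ± 10.6 normalized counts, and Slc5a7, the choline transporter, from 52.2 ± 18.8 to 150 ± 23.6 (adjusted p = 0.0446 for each, limma). Without wild-type library 2 both rose too (adjusted p = 0.00374 for Chat and 0.00788 for Slc5a7). The 5 cholinergic markers summed to between 94.2 and 150 normalized counts in wild type and between 293 and 430 in knockout, and 3 of the 5 rose, with or without wild-type library 2. Over all tested genes 1.28% were called higher with all libraries, and this marker list was chosen with earlier results of these data known. The part of cholinergic neurons in the values of Isl1 was not tested.

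Of the remaining genes, Syndig1l, Lrrc10b and Sh3rf2 had the highest ratios of group means of the 10, while on the log2 scale of the fit Six3 came after Sh3rf2. Syndig1l (ENSMUSG00000071234, chromosome 12, 84677277 to 84698831, minus strand) read 272, 329 and 294 normalized counts in wild-type cortex and 1628, 2603 and 2061 in knockout cortex. Lrrc10b (ENSMUSG00000090291, chromosome 19, 10455371 to 10457473, minus strand) read 211, 263 and 237 in wild type and 1218, 2387 and 1844 in knockout. For both genes the groups were far apart, and the lowest knockout libraries lay 4.95-fold and 4.62-fold above the highest wild-type libraries.

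Sh3rf2 (ENSMUSG00000057719, chromosome 18, 42053667 to 42158960, plus strand) read 48.5, 54.1 and 31.6 normalized counts in wild-type cortex and 290, 517 and 351 in knockout cortex. With means of 44.7 ± 11.7 and 386 ± 118 (SD, n = 3) it had the highest ratio of group means of the 10 genes, 8.63, and the widest gap, 5.36-fold from the highest wild-type to the lowest knockout library. Ido1 (ENSMUSG00000031551, chromosome 8, 24584136 to 24597009, minus strand) read 14.9, 16.0 and 28.7 normalized counts in wild type and 53.6, 84.9 and 107 in knockout. Ido1 is also made by dendritic cells, and of 8 markers of those cells 5 were tested in cortex, where limma called 0 and 0 had an unadjusted p under 0.05. The 8 markers summed to between 1390 and 1646 normalized counts in wild type and between 1192 and 1370 in knockout. Most of each sum was Flt3, at between 919 and 1234 in wild type and between 890 and 984 in knockout. Without wild-type library 2 limma called 1 of the 5 tested markers lower, in a fit that called 4693 genes in all.

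**Figure D1:**
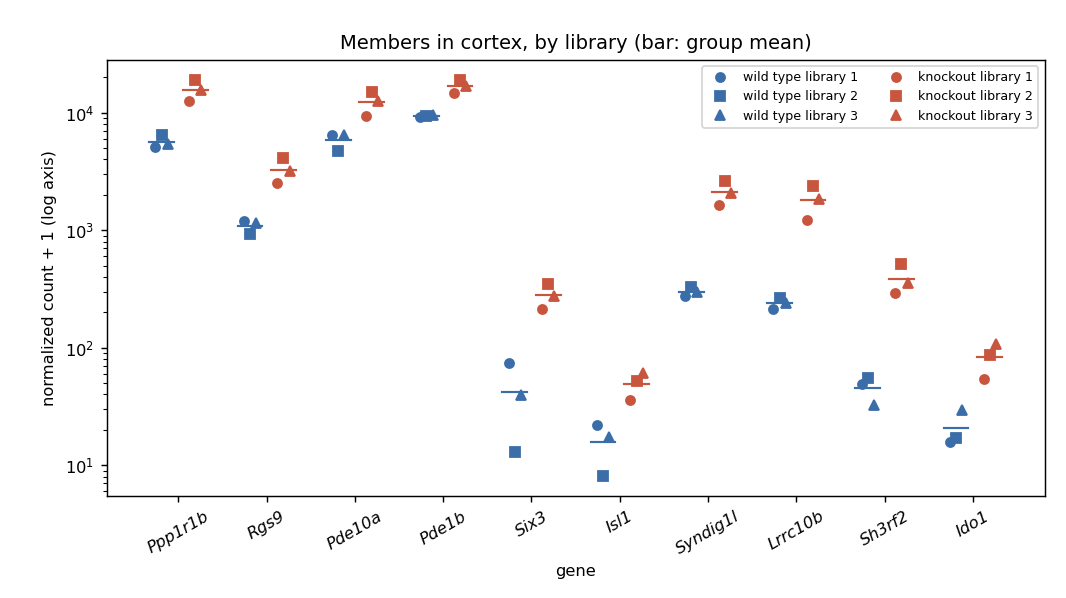
Normalized counts plus 1 (log axis) of the 10 genes in each cortex library, with wild type in blue, knockout in red, the library number as the marker shape and the group mean as a bar. All knockout points lie above all wild-type points for each gene, and the square of knockout library 2 is the highest for 8 of the 10.

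Per kilobase of exon, the levels in wild-type cortex spanned from 1935 ± 250 normalized counts for Ppp1r1b to 3.71 ± 1.78 for Isl1. Pde1b came next to Ppp1r1b at 1723 ± 30.9, and the library ranges of these 2 genes overlapped. Pde10a followed at 455 ± 76.9, Rgs9 at 170 ± 22.2, Lrrc10b at 113 ± 12.5 and Syndig1l at 96.8 ± 9.21, and of these only Lrrc10b and Syndig1l overlapped as neighbours. The scarce genes Ido1 (10.9 ± 4.21), Sh3rf2 (7.94 ± 2.08), Six3 (7.50 ± 5.55) and Isl1 overlapped each with the next.

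The order changed in knockout cortex. Per kilobase, Ppp1r1b (5365 ± 1048) and Pde1b (3135 ± 403) no longer overlapped. Lrrc10b (864 ± 278) and Syndig1l (681 ± 159) stood above Rgs9 (511 ± 123), which had been above both in wild type, although the library ranges of neighbours from Pde10a (958 ± 224) to Rgs9 overlapped. Isl1 remained lowest at 12.2 ± 3.21, below Ido1 at 44.8 ± 14.7 with no overlap.

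Within a library, a ratio of levels per kilobase does not depend on the scaling of that library. Lrrc10b over Ppp1r1b was 0.0584 ± 0.00245 (SD, n = 3) in wild-type cortex and 0.158 ± 0.0219 in knockout cortex, and Syndig1l over Ppp1r1b was 0.0502 ± 0.00186 and 0.126 ± 0.00484. Rgs9 over Ppp1r1b was 0.0898 ± 0.0218 and 0.0948 ± 0.00467. Pde1b over Ppp1r1b was 0.899 ± 0.106 in wild type and 0.590 ± 0.0406 in knockout. Pde10a over Ppp1r1b was 0.241 ± 0.0661 and 0.178 ± 0.00775. The libraries of both genotypes overlapped for Rgs9 and Pde10a over Ppp1r1b and did not for the other 3 ratios.

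The 3 knockout cortex libraries were unequal, and 8 of the 10 genes followed 1 order, with library 2 highest, library 3 next and library 1 lowest, an order that 20.3% of all tested genes showed. Isl1 and Ido1 read highest in library 3. Taking each library's difference from the wild-type mean, library 2 exceeded library 1 by a ratio of 1.73 (Syndig1l) to 2.63 (Pde10a) with a median of 1.90, and library 3 exceeded library 1 by 1.25 (Sh3rf2) to 2.58 (Ido1) with a median of 1.43. The same ratios for 20 other markers of striatal projection neurons were 1.48 to 2.62 (median 1.86) and 1.05 to 1.77 (median 1.41), and all 20 had the order of libraries 2, 3 and 1. Of these 20 markers, 18 rose in knockout cortex and 0 fell (limma, with 0 lower at an unadjusted p under 0.05). Without wild-type library 2 all 20 rose. Their sum went from between 68977 and 76729 normalized counts to between 117168 and 153472. The background with all libraries was 1.28% of tested genes called higher and 0.661% called lower. This list was chosen with earlier results of these data known, so its counts are a description and no independent support. The fit without wild-type library 2 called 4693 genes in all, against 426 with all cortex libraries.

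Ttr had the order of the same libraries but a steeper one, at 1928, 10183 and 6024 normalized counts in knockout libraries 1 to 3 and between 940 and 1250 in wild type, with ratios of 10.4 and 5.68. The 15 choroid plexus markers summed to between 16084 and 16240 normalized counts in wild-type cortex and between 21477 and 33967 in knockout cortex. Most of each sum was Enpp2, at between 14124 and 14497 in wild type and between 18642 and 21982 in knockout. Of the 15, 2 rose (Enpp2 and Clic6) and 0 fell, or 4 and 0 without wild-type library 2 (limma, with 0 lower at an unadjusted p under 0.05). Others of the list, such as Folr1 and Aqp1, overlapped between the genotypes. The 10 markers of cortical excitatory neurons summed to between 184688 and 185998 in wild type and between 203735 and 207732 in knockout, with 1 risen and 1 fallen, or 6 and 2 without wild-type library 2. Of the other lists in cortex, limma called 0 of 9 ependymal, 0 of 5 septum and pallidum, 0 of 7 thalamus and 0 of 10 oligodendrocyte markers, with 1 lower, 4 lower, 1 higher and 6 higher at an unadjusted p under 0.05. Of the meningeal fibroblast markers 1 of 8 fell and 5 were lower at an unadjusted p under 0.05, and the list summed to between 7516 and 7872 normalized counts in wild type and to 7051, 4020 and 5492 in knockout libraries 1 to 3, lowest in the library where 8 of the 10 genes were highest. The septum and pallidum markers summed to between 2928 and 3625 in wild type and to 2741, 2233 and 2475 in knockout. The oligodendrocyte markers summed to between 349571 and 360211 in wild type and between 401078 and 433501 in knockout. These 3 sums did not overlap between the genotypes. Neither did the sums of the choroid plexus, cortical excitatory, striatal, cholinergic, dendritic cell and hippocampal field markers. The last summed to between 4832 and 5135 in wild type and between 5180 and 5465 in knockout. The ependymal and thalamus sums overlapped. Of single tested genes in cortex, 16.0% separated upwards and 12.2% downwards. Without wild-type library 2, 8 of 10 oligodendrocyte markers rose, and 3 of 8 meningeal and 3 of 5 septum and pallidum markers fell. Of 7 tested hippocampal field markers 1 fell, or 2 rose and 2 fell without that library. The counts without it come from a fit that called 4693 genes in all, 51.6% of them higher. With all cortex libraries 426 genes were called, 66.0% of them higher. None of the listed markers of these cell types was at 0 in all libraries, and the part of these cell types in the values was not tested.

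**Figure D2:**
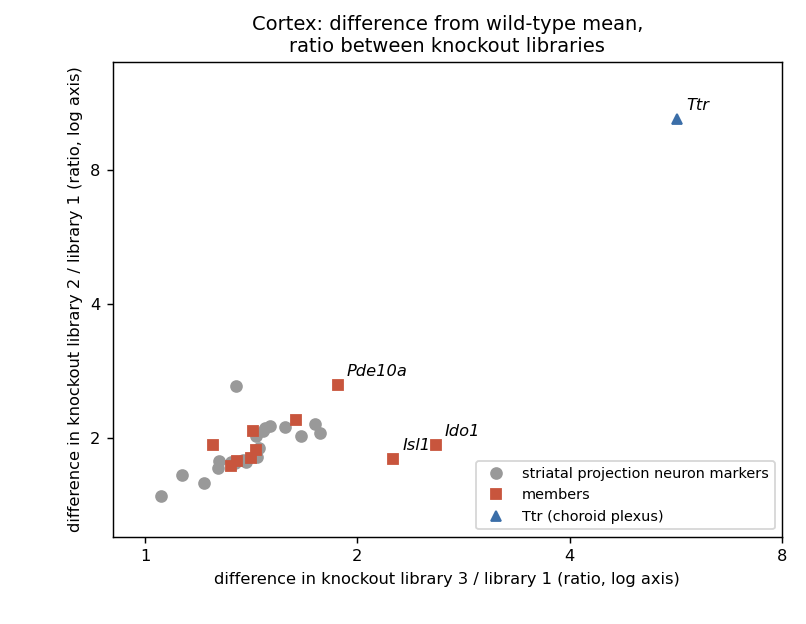
Difference from the wild-type cortex mean in knockout library 2 (vertical) and library 3 (horizontal), each as a ratio to that in library 1, on log axes, with 1 point per gene. The 10 genes lie between 1.73 and 2.63 on the vertical axis and the 20 striatal markers between 1.48 and 2.62, Pde10a, Isl1 and Ido1 lie to the right of all 20, and Ttr lies at 5.68 and 10.4.

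In hippocampus, the contrast that did not choose the genes, the result was mixed: Pde1b rose, Rgs9 and Pde10a fell, and the other 7 genes were not called (limma, adjusted p below 0.05 over 22337 genes). The background was 14.1% of tested genes called higher and 15.1% called lower, so 1 and 2 of 10 stand near it. Without wild-type library 2, 5 of the 10 were called, 1 higher and 4 lower. The fit without that library also called more genes in all, 7833 against 6513, of which 49.9% were higher. The median log2 fold change of the 10 genes was 0.11, beside 0.02 over all tested genes. All knockout libraries lay above all wild-type libraries for 3 genes (Pde1b, Isl1 and Syndig1l), a separation that 24.3% of tested genes showed, and below them for 2 (Rgs9 and Pde10a), which 21.5% showed. Of the 3, Isl1 had met the minimum mean for the tests through the knockout group only.

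Pde10a read 7742, 8326 and 8346 normalized counts in wild-type hippocampus and 4841, 5015 and 4927 in knockout hippocampus. The groups were far apart and tight, with means of 8138 ± 343 and 4928 ± 86.7 (SD, n = 3). The log2 fold change was -0.72 ± 0.04 (SE, adjusted p = 4.52e-05, limma), lower in 3 of 3 knockout libraries and called under each of the alternatives run, where the adjusted p ranged up to 0.00199. Long genes as a class were lower in knockout hippocampus: among the 1049 protein-coding genes whose exonic length was within 0.8 to 1.25 times the 12.849 kb of Pde10a, the median log2 fold change was -0.32. Of these genes, 58.7% were called lower. With the trend along length removed, Pde10a stood at -0.38.

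Rgs9 read 1758, 1155 and 1192 normalized counts in wild-type hippocampus and 862, 935 and 806 in knockout hippocampus. Wild-type library 1 was the highest by far, and the lowest wild-type library still lay above the highest knockout library. The log2 fold change was -0.63 ± 0.16 (SE, adjusted p = 0.01996, limma), with an adjusted p between 0.000102 and 0.0733 over the alternatives. The call was lost without knockout library 1 (adjusted p = 0.0581) or knockout library 3 (adjusted p = 0.0733). It was also lost with a prior variance that does not follow expression (adjusted p = 0.0659).

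Pde1b read 11166, 11611 and 11432 normalized counts in wild-type hippocampus and 12967, 13144 and 12724 in knockout hippocampus. This rise was small and even, from 11403 ± 224 to 12945 ± 211 (SD, n = 3), a log2 fold change of 0.18 ± 0.04 (SE, adjusted p = 0.00829, limma). Without wild-type libraries 1 and 3, the libraries high in Ttr, 1 wild-type library remained, which was assumed to vary like the knockout group, and Pde1b missed the threshold (adjusted p = 0.0568, over all alternatives 0.000181 to 0.0568). Pde10a was lower there too, at -0.76, and Rgs9 stood at -0.41, closer to 0 than its -0.63 over all libraries. Without wild-type library 1 alone Rgs9 stood at -0.44 (adjusted p = 0.00623, limma).

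Ppp1r1b read 6535, 4054 and 5173 normalized counts in wild-type hippocampus and 4535, 4208 and 4191 in knockout hippocampus, so that the groups overlapped. The log2 fold change was -0.26 ± 0.15 (SE, adjusted p = 0.237, limma), and the wild-type library with the least Ttr, library 2, was the lowest of all 6. Without wild-type library 2 the value was -0.43 (adjusted p = 0.0101, limma), and without wild-type libraries 1 and 3 it was 0.09. Its adjusted p over all alternatives ran from 0.0101 to 0.548. The overlapping 1700003D09Rik read 160, 46.0 and 88.9 in wild type and between 25.3 and 43.0 in knockout.

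Six3 read 180, 31.0 and 108 normalized counts in wild-type hippocampus and 137, 140 and 148 in knockout hippocampus. The wild-type libraries lay on both sides of a tight knockout group, and the difference of 0.73 ± 0.55 missed the threshold (SE, adjusted p = 0.362, limma). Set against wild-type library 2 alone, as for Pde1b, it was 2.15. That fit leaves out the wild-type spread, an SD of 74.5 over all wild-type libraries against 5.82 in knockout. Over all alternatives the adjusted p reached 0.957. Its antisense partner Six3os1 read 363, 50.3 and 208 in wild type and between 69.5 and 98.6 in knockout. The order of wild-type libraries 1, 3 and 2, which is that of Ttr, was shared by Ppp1r1b, Rgs9, Six3 and Sh3rf2, 4 of the 10 genes, and by 21.5% of tested genes. The part of choroid plexus in these values was not tested.

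The marker lists are set beside these values. Of 19 tested striatal projection neuron markers 5 rose and 1 fell in hippocampus with limma, or 4 and 0 without wild-type libraries 1 and 3, and the 20 found summed to between 68882 and 72724 normalized counts in wild type and between 73294 and 75790 in knockout. The 15 choroid plexus markers summed to between 29051 and 514288 in wild type and between 25796 and 41117 in knockout. limma called 1 of them lower, with 11 lower at an unadjusted p under 0.05, edgeR called 14 and DESeq2 15, and without wild-type libraries 1 and 3 limma called 0 lower and 1 higher. Markers that rose with limma numbered 5 of 10 for cortical excitatory neurons, 6 of 10 for oligodendrocytes, 3 of 7 for thalamus and 2 of 5 for septum and pallidum, with 0 fallen. In limma 1 thalamus marker was lower at an unadjusted p under 0.05, and DESeq2 called 1 lower. Without wild-type libraries 1 and 3 these counts were 0, 0, 1 and 2, with 3 and 7 higher at an unadjusted p under 0.05 in the first 2 lists. Of 8 hippocampal field markers 1 rose and 2 fell with limma, 0 and 2 with edgeR and DESeq2, and 0 and 4 without those libraries, and of 6 tested dendritic cell markers 1 fell. limma and edgeR called 0 of 9 ependymal, 0 of 8 meningeal and 0 of 1 tested cholinergic markers, with 1, 2 and 0 at an unadjusted p under 0.05 in limma, and DESeq2 called 1, 1 and 0. The part of these cell types in the values was not tested.

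Sh3rf2 read 105, 15.0 and 33.9 normalized counts in wild-type hippocampus and 5.86, 18.0 and 15.5 in knockout hippocampus. The groups overlapped, since wild-type library 2 lay within the knockout range, and the difference of -1.59 ± 0.71 missed the threshold (SE, adjusted p = 0.133, limma). It was called with DESeq2 (adjusted p = 0.0230) and without wild-type library 2 (adjusted p = 0.0257, limma). Without wild-type libraries 1 and 3 the difference was -0.31.

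Isl1 was near the floor, with 13.2, 6.42 and 0 normalized counts in wild-type hippocampus and 23.4, 28.9 and 17.4 in knockout hippocampus. The gene met the minimum mean for the tests through the knockout group only, with means of 6.55 in wild type and 23.2 in knockout. Its tests are therefore a description and lend no support to a difference. The log2 fold change of 2.33 ± 0.91 missed the threshold (SE, adjusted p = 0.0947, limma). The adjusted p was 0.0301 without wild-type library 1 and 0.0460 with quantile normalization (limma), and it reached 0.225 under another alternative. A value of 0 allows up to 3 reads, which is 3.17 normalized counts in that library.

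Syndig1l read 604, 605 and 599 normalized counts in wild-type hippocampus and 753, 688 and 661 in knockout hippocampus. It narrowly missed the threshold at a log2 fold change of 0.22 ± 0.07 (SE, adjusted p = 0.0532, limma), and quantile normalization called it (adjusted p = 0.0160, over all alternatives up to 0.269). Lrrc10b read 5712, 7037 and 6036 in wild type and 6200, 7107 and 6483 in knockout, with groups that overlapped and a difference of 0.08 ± 0.08 (adjusted p = 0.526). Ido1 was scarce, between 6.42 and 12.7 in wild type and between 5.80 and 19.5 in knockout, with a difference of 0.14 ± 0.51 (adjusted p = 0.867).

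**Figure D3:**
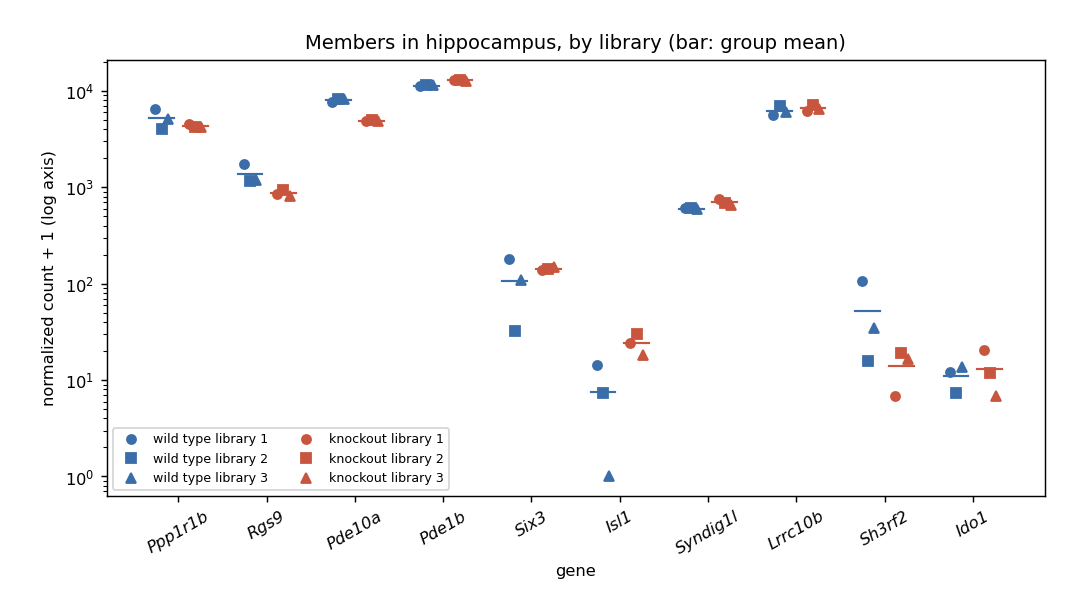
Normalized counts plus 1 (log axis) of the 10 genes in each hippocampus library, drawn as for cortex. Wild type and knockout separate for Rgs9, Pde10a, Pde1b, Isl1 and Syndig1l, and wild-type library 2 (square) lies apart from wild-type library 1 (circle) for Six3 and Sh3rf2.

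Lrrc10b had another place among the 10 genes in each tissue. In wild-type hippocampus it was the first by level per kilobase, at 2978 ± 328 normalized counts (SD, n = 3), above Pde1b at 2113 ± 41.5 with no overlap, whereas in wild-type cortex it was the fifth. Per kilobase, the ratio of Lrrc10b to Ppp1r1b within a library was 1.75 ± 0.61 in wild-type hippocampus and 2.14 ± 0.225 in knockout hippocampus, against 0.0584 ± 0.00245 in wild-type cortex. In wild-type hippocampus Pde1b overlapped with Ppp1r1b (1794 ± 424), and Rgs9 (214 ± 52.9) overlapped with Syndig1l (196 ± 1.06). Pde10a (633 ± 26.7) overlapped with neither neighbour. Six3 (19.5 ± 13.7) overlapped with Sh3rf2 (9.09 ± 8.40), Sh3rf2 overlapped with Ido1 (5.54 ± 1.80), and Isl1 was lowest at 1.65 ± 1.67, below Ido1 with no overlap.

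In knockout hippocampus, Syndig1l (228 ± 15.2 normalized counts per kilobase) stood above Rgs9 (136 ± 10.1) with no overlap, whereas in wild type their ranges overlapped. Sh3rf2 was lowest there at 2.33 ± 1.14, below Isl1 at 5.87 ± 1.45 with no overlap. Of the 9 neighbouring pairs, Ido1 (6.60 ± 3.80) and Isl1 alone overlapped.

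**Figure D4:**
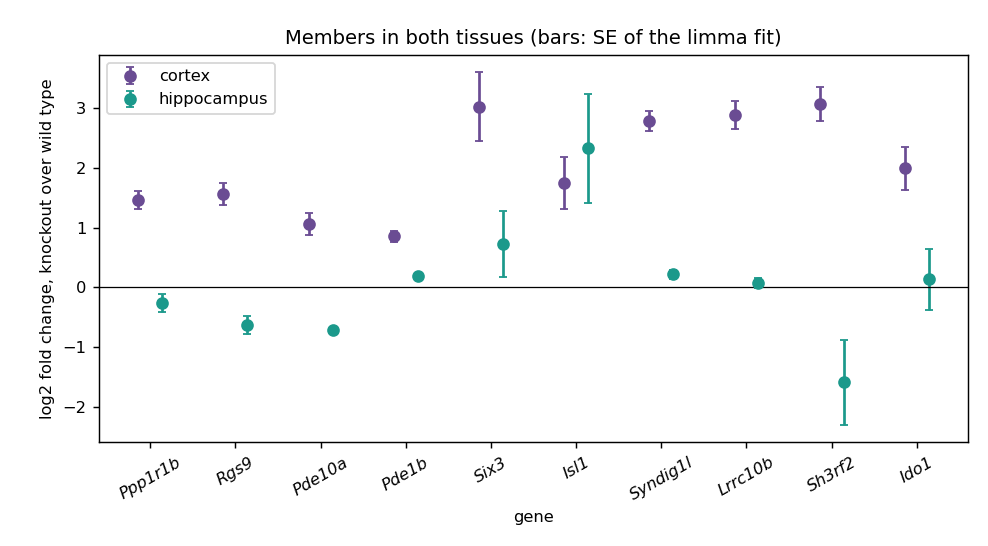
Log2 fold change of knockout over wild type for the 10 genes in cortex and in hippocampus, with bars for the SE of the limma fit. The cortex values, which chose the genes, lie between 0.86 and 3.07, and the hippocampus values between -1.59 and 2.33. The difference between the tissues was not tested, since the cortex values had chosen the genes.

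The other genes of the pathways were listed in 6 groups of 99 genes in all, of which 91 were tested in cortex. There 11 rose and 0 fell (limma, with 4 lower at an unadjusted p under 0.05), against a background of 1.28% of tested genes called higher and 0.661% called lower. Of 27 genes of dopamine and cyclic AMP signalling around DARPP-32, 7 rose, or 20 without wild-type library 2. The fit without that library called 4693 genes in all, 51.6% of them higher, against 426 with all libraries. Of the 7, the 3 with the smallest p were receptors. Drd2, the inhibitory dopamine receptor of striatal neurons, read 209, 126 and 159 normalized counts in wild type and 959, 1775 and 1305 in knockout (log2 fold change 3.01 ± 0.26 SE, adjusted p = 0.00569, limma). Adora2a, the adenosine receptor of the same neurons, rose by 2.96 ± 0.29 (adjusted p = 0.00723), and Drd1, the stimulatory dopamine receptor, by 1.57 ± 0.16 (adjusted p = 0.00847). Others that rose included Adcy5, an adenylyl cyclase (0.83), and the G protein subunits Gng7 (0.81) and Gnal (0.60), and the 20 not called include the kinases and phosphatases of the list. Drd1, Drd2, Adora2a, Adcy5, Gng7 and Gnal are also on the list of striatal markers above, and several were known from earlier results of these data.

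Of 18 other phosphodiesterase genes, Pde7b (0.70 ± 0.11, adjusted p = 0.0364) and Pde8b (0.38 ± 0.06, adjusted p = 0.0364) rose in cortex. Of 20 tested transcription factor genes of the ventral forebrain, Foxp1 (0.41 ± 0.06, adjusted p = 0.0360) and Rarb, a retinoic acid receptor (1.09 ± 0.19, adjusted p = 0.0439), rose. Among the 9 genes of Rgs9 relatives and partners, 11 tested paralogues of the 10 genes and 7 tested kynurenine pathway genes, limma called 0 in cortex, against 4, 5 and 1 with an unadjusted p under 0.05. Without cortex wild-type library 2, 51 of the pathway genes were called (44 higher and 7 lower), and without knockout library 3 limma called 0. Over all tested genes these 2 fits called 4693 and 15. With each of the other 4 cortex libraries left out in turn, 3 to 5 were called, and Pde7b, Pde8b, Foxp1 and Rarb missed the threshold each time. Each of the 3 receptors missed the threshold without knockout library 3, at an adjusted p of 0.0589 for Drd2, the highest over its alternatives, whose lowest was 1e-04.

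In hippocampus, 92 of the 99 pathway genes were tested, of which 26 rose and 9 fell, against the background of 14.1% and 15.1%. Of the 27 genes around DARPP-32, 13 rose and 0 fell, and Drd1, Drd2 and Adora2a were not among them. edgeR gave the same counts and DESeq2 15 and 0, and 0 were lower at an unadjusted p under 0.05 in limma. Without wild-type libraries 1 and 3 limma called 5 higher and 0 lower, with 1 lower at an unadjusted p under 0.05. The 3 with the smallest p were Ppp1r1a, a related inhibitor of protein phosphatase 1 (log2 fold change 0.44 ± 0.05 SE, adjusted p = 0.000498, limma), Prkaca, a catalytic subunit of protein kinase A (0.27 ± 0.04, adjusted p = 0.00416), and Ppp2ca, a phosphatase subunit (0.25 ± 0.05, adjusted p = 0.00958). Of these 13, Gng7 alone was also called in cortex. The median log2 fold change of this list was 0.18 in hippocampus and 0.16 in cortex, beside 0.02 and -0.01 over all tested genes.

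Among the relatives and partners of Rgs9 in hippocampus, Gnb5, the G protein beta subunit that pairs with Rgs9 (0.27 ± 0.03, adjusted p = 0.00129), and Rgs7 (0.27 ± 0.05, adjusted p = 0.00449) rose while Rgs9 itself fell. Gpr158, a receptor that binds Rgs7 (-0.37 ± 0.07, adjusted p = 0.00559), and Gpr179 (-1.05) fell. Of the 18 phosphodiesterase genes 1 rose and 5 fell, led by Pde11a (-1.17 ± 0.10, adjusted p = 0.000191), Pde7a (-0.37 ± 0.05, adjusted p = 0.00148) and Pde4d (-0.64 ± 0.09, adjusted p = 0.00211). Of the 20 tested transcription factor genes 7 rose, among them Meis2 (0.27 ± 0.04), Zfp503 (0.50 ± 0.08) and Dlx6 (0.53 ± 0.11), and 1 fell, Foxp1 (-0.20).

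Of the 11 tested paralogues 3 rose and 1 fell in hippocampus. Syndig1, the relative of Syndig1l, rose by 0.43 ± 0.07 (adjusted p = 0.00283, limma), Prrt2 by 0.20 ± 0.05 (adjusted p = 0.0185), and Sh3rf3 fell by 0.25 on the log2 scale (adjusted p = 0.0251). Of the 8 tested kynurenine genes limma and edgeR called 0 and DESeq2 1, lower, and 1 had an unadjusted p under 0.05. Without the wild-type libraries high in Ttr, the calls among pathway genes of the hippocampus came to 19 (12 higher and 7 lower), among them 4 higher and 1 lower transcription factor genes, 3 lower phosphodiesterase genes and 1 paralogue in each direction. Leaving out wild-type library 3 gave 16, leaving out knockout library 2 gave 20 and leaving out knockout library 3 gave 22. The calls of Prrt2 and Sh3rf3 were lost without wild-type library 3 and without knockout library 3, at an adjusted p of 0.0915 and 0.0670 for Prrt2 and of 0.0852 and 0.0825 for Sh3rf3. Over all alternatives their adjusted p ran from 0.00160 to 0.148 and from 0.00271 to 0.0852.

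**Figure D5:**
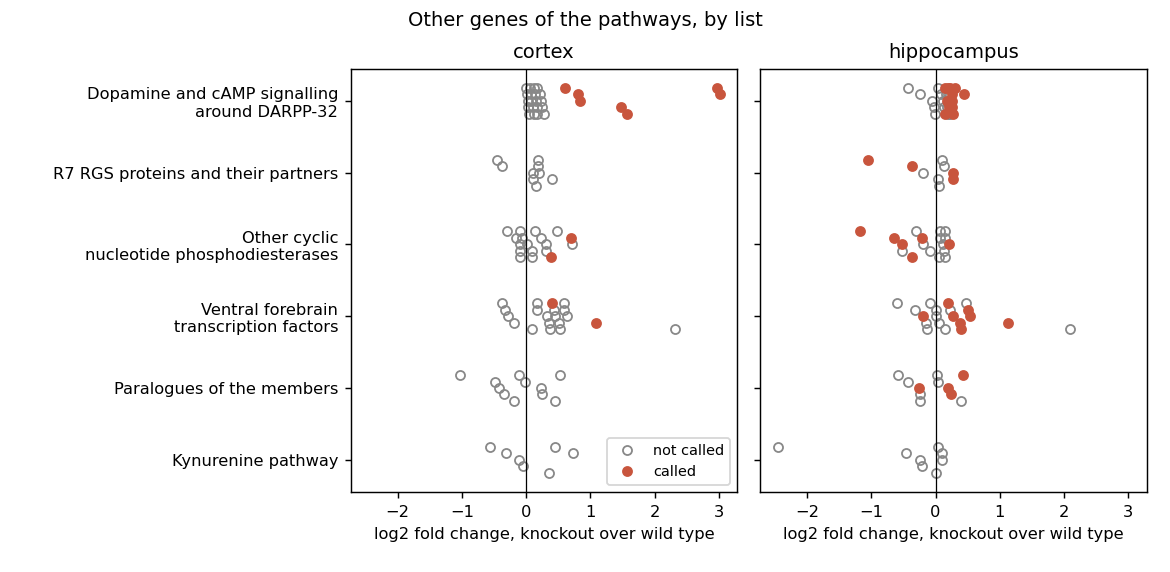
Log2 fold change of knockout over wild type for the tested genes of the 6 pathway lists, members left out, in cortex (left) and hippocampus (right), with called genes filled and others open. In cortex the 7 called genes around DARPP-32 lie between 0.60 and 3.01, apart from the 20 others, and in hippocampus the 13 called genes lie at 0.44 or below.

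The genes with a pattern most like the mean of the 10 were sought among 16777 others by Pearson correlation over the 12 libraries, on log2 values centred on each tissue. The 10 closest were Ivns1abp (r = 0.99), Drd1 (0.99), Scn4b (0.99), Adora2a (0.98), Drd2 (0.97), Filip1 (0.97), Actn2 (0.96), Tgfa (0.96), Penk (0.96) and Mapk6 (0.96), and 14 genes reached 0.95. The libraries of a tissue share scaling, and each correlation includes the gap between knockout and wild-type cortex that chose the 10 genes. The measure is blind to size: Ivns1abp went from 8034 ± 76.3 to 9769 ± 290 normalized counts in cortex (SD, n = 3), a log2 fold change of 0.28, whereas Drd1 changed by 1.57. Scn4b, a sodium channel subunit, went from 7389 ± 809 to 19743 ± 3418, and Penk, the enkephalin precursor, from 2026 ± 104 to 7695 ± 2054.

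Each of the 10 genes correlated with the mean of the other 9 at between 0.92 and 1.00 over the 6 cortex libraries and at between -0.51 (Lrrc10b) and 0.62 (Ppp1r1b) over the 6 hippocampus libraries. The cortex values hold the difference that chose the genes and are given as a description, and the hippocampus values were of both signs.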

How the data were processed

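RNA of 12 libraries was sequenced on Illumina protocols, per the labels. The authors deposited 1 table per tissue of a signal named normalized counts, made with STAR, HTSeq, DESeq2 and GRCm38 per the submitters' processing notes, with versions not given in the sources used here. All values were whole multiples of 1 step per library (within 0.001), as reads divided by a size factor would be. For cortex wild-type libraries 1 and 2 the step was close to 1, at 0.991 and 1.002. Positions and exonic lengths are from GENCODE.

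Knockout was set against wild type in each tissue alone, using limma 3.58.1 (R 4.3.3) on log2(normalized count + 1), a scale that understates the change of low genes. Genes needed a mean of 10 or more. The prior variance followed expression, and calls are at a two-sided Benjamini-Hochberg adjusted p below 0.05 over all tested genes. In hippocampus, edgeR 4.0.16 and DESeq2 1.42.0 on the recovered reads (100% of values whole) were alternatives, as were other pseudocounts, filters, scalings, a replicate block, a loess along exonic length and each library left out. The fit was tested on simulated data.

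The members and the 6 pathway and 11 marker lists (205 genes, of which 1, Gpr52, was not matched) were chosen with earlier results of these data known. The genes named are all members, up to 3 called genes with the smallest p per pathway list and tissue, the 10 genes most like the members (mean of at least 50), overlapping genes and Ttr. Chat, Slc5a7, Enpp2, Clic6, Folr1, Aqp1, Flt3, Adcy5, Gng7, Gnal, Gpr179 and Foxp1 in hippocampus were named after their values were seen. Read depths and floors of 3 reads cover counting error only. Columns of other samples numbered 0. Values of 1 listed gene are not reported here.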

Additional observations from a re-analysis of the deposited data

Results flagged for a closer look

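Rgs9 and Pde10a moved in opposite directions in the 2 tissues. All 3 knockout libraries lay above all 3 wild-type libraries in cortex and below them in hippocampus for each gene. The choice of the genes had fixed the cortex direction, and 21.5% of tested genes were separated downwards in hippocampus. Of coding genes of like length, 58.7% for Pde10a and 15.1% for Rgs9 were called lower in hippocampus. The log2 fold change in cortex minus that in hippocampus was 2.2 for Rgs9 (1.57 and -0.63) and 1.78 for Pde10a (1.06 and -0.72). The difference was not tested, since the cortex values had chosen both genes.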

How the results depend on the processing

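In cortex, 426 genes were called. That count was 233 with no filter on low values, 86 with a prior variance that does not follow expression, 1256 with the length trend removed, and between 15 (without knockout library 3) and 4693 (without wild-type library 2) with 1 library left out. The 11 pathway genes called in cortex became 5, 2 and 17 under the same 3 settings and between 0 and 51 with 1 library left out. In hippocampus, 6513 genes were called, and leaving out 1 library gave 3656 to 7833. The share of calls that were higher was 48.2%, and it was 60.7% with quantile normalization and 37.4% with a prior variance that does not follow expression.

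The 3 members called in hippocampus became 5 with quantile normalization and between 2 and 5 with 1 library left out. Quantile normalization called 7506 genes in all, against 6513. Isl1, among its 5, had met the minimum mean through the knockout group only. The 35 pathway genes called there became 20 with a prior variance that does not follow expression and between 16 and 48 with 1 library left out. Without wild-type hippocampus libraries 1 and 3, an alternative chosen after seeing the data, 3705 genes, 3 members and 19 pathway genes were called. That fit kept 1 wild-type library, so its calls leave out the spread between wild-type libraries. There Ppp1r1b turned to 0.0877 and Lrrc10b to -0.0955 on the log2 scale. Lrrc10b was at -0.0050 with the length trend removed and Ido1 at -0.1288 without wild-type library 2, in a range up to 0.5364 with 1 library left out. The cause of these changes was not tested.

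The labels do not say whether replicate numbers pair the samples. The deviations of same-numbered libraries correlated between -0.065 and 0.005 in cortex and between -0.027 and 0.091 in hippocampus. Pairs with unlike numbers ran from -0.049 to 0.075 in cortex and from -0.098 to 0.121 in hippocampus. With 3 libraries per group these values cannot settle whether a pairing exists. With the replicate block, 45 genes and 2 pathway genes were called in cortex, and 6015 genes, 3 members and 32 pathway genes in hippocampus. edgeR and DESeq2 were not run in cortex, where the steps of wild-type libraries 1 and 2 were close to 1. Isl1, Ido1 and Sh3rf2 in hippocampus and Isl1 in wild-type cortex rest on few reads, which limits their precision.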
